A study of Arabidopsis thaliana with 8 samples.

Results

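The genes described here are 9 Arabidopsis thaliana loci that make or conjugate the growth hormone auxin. They were chosen by name, not by a rule on measured values, from 27628 loci in the deposited tables. Earlier results of these data were known when they were chosen. TAA1 (AT1G70560), YUC2 (AT4G13260), YUC8 (AT4G28720) and YUC9 (AT1G04180) act in synthesis. GH3.1 (AT2G14960), GH3.3 (AT2G23170), GH3.5 (AT4G27260), GH3.6 (AT5G54510) and GH3.17 (AT1G28130) act in conjugation. RNA sequencing gave their transcript levels in whole seedlings of 4 genotypes: agb1 (allele agb1-2), hy5, the double mutant cry1 cry2, and wild type (WT). Each genotype had 2 libraries, which the labels call biological replicates. All seedlings, WT included, were of the Col-0 ecotype, were germinated on 1/2 MS medium with 1% sucrose, were held at 4 degrees for 3 days, received white light for 12 h and then stood in blue light for 4.5 days. The sources used here give neither the hy5 and cry1 cry2 alleles nor the number of seedlings in a sample. No complemented line and no other light condition was analysed here. CRY1 and CRY2 perceive blue light, HY5 is a transcription factor that promotes seedling development in the light, and AGB1 is the G protein's beta subunit. The study set the mutants against WT to ask which genes depend on blue-light signalling and on G protein signalling.

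Auxin (indole-3-acetic acid, IAA) is made from tryptophan in a pair of steps. TAA1, an aminotransferase, turns tryptophan into indole-3-pyruvate, and the YUCCA (YUC) flavin monooxygenases turn that product into IAA. GH3 enzymes join IAA and related acids to amino acids, which removes the hormone from the active pool, and several GH3 genes are themselves induced by auxin. In seedlings, auxin made in the cotyledons moves to the hypocotyl and promotes its elongation, a process that light restrains.

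The tables held 15651218 to 23098347 reads per library, and 20695 loci, among them all 9 genes described here, had enough reads to be tested. Levels are given below as CPM, read counts scaled to the library total after TMM correction for library composition, or as deposited RPKM, which also divides by length. A gene was called where edgeR's quasi-likelihood test gave a Benjamini-Hochberg adjusted p under 0.05 over all loci tested. Of the targeted genes, CRY2 was at 3 and 4 reads in cry1 cry2, against 5006 and 4256 reads in WT. CRY1 had 82.4 and 78.0 CPM in cry1 cry2, against 202 and 198 CPM in WT. AGB1 averaged 43.8 ± 0.811 CPM in agb1 and 69.7 ± 7.68 CPM in WT (SD, n = 2 each), a log2 fold change of -0.67 (adjusted p = 2.73e-08). HY5 averaged 14.4 ± 0.696 CPM in hy5 and 15.4 ± 0.663 CPM in WT (adjusted p = 0.488, log2 fold change -0.09), so its transcript did not check the hy5 label. In whole seedlings, fewer cells of a type and less RNA per cell cannot be told apart. The summed level of 12 root marker genes, dominated by PYK10, was 3001 to 3024 CPM in agb1, 6834 to 6985 CPM in hy5, 7165 to 7296 CPM in cry1 cry2 and 4359 to 4362 CPM in WT. Without PYK10 the same sum was 150.5 to 150.9 CPM in agb1, 320 to 337 CPM in hy5, 331 to 358 CPM in cry1 cry2 and 195 to 217 CPM in WT. Of the 11 root markers tested against WT, 1 rose and 4 fell in agb1, 5 rose and 4 fell in hy5, and 4 rose and none fell in cry1 cry2. Their median log2 fold change was -0.30 in agb1, -0.14 in hy5, and for cry1 cry2 0.13, so in hy5 the median lay below WT while the sums, carried by PYK10 and CASP1, lay above it. COBL9, EXPA7, PLT1 and WER were the 4 that fell in hy5. The summed level of 6 green shoot markers was 17284 to 17348 CPM in agb1, 9944 to 10110 CPM in hy5, 2572 to 2602 CPM in cry1 cry2 and 14208 to 14837 CPM in WT. Of those 6, 3 rose and 1 fell in agb1, 2 rose and 4 fell in hy5, and all 6 fell in cry1 cry2. The sum of 6 seed markers was 8.35 to 9.20 CPM in agb1, 12.7 to 14.9 CPM in hy5, 53.6 to 70.8 CPM in cry1 cry2 and 8.98 to 9.71 CPM in WT. Seed markers called against WT numbered 1 higher and 2 lower in agb1, 3 higher in hy5 and all 6 higher in cry1 cry2. The counts of all 3 marker lists stand beside the shares of all loci called against WT. Those were 8.76% higher and 8.41% lower in agb1, 22.6% and 20.2% in hy5, and 25.6% and 25.8% in cry1 cry2. No gene of these 3 marker lists was at 0 reads over the 8 libraries together.

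In the TAIR10.1 annotation the 9 genes lie on 4 of the chromosomes, and no other annotated gene overlaps any of them. TAA1 (chr1:26604855-26607652, plus strand, 5 exons) and YUC9 (chr1:1104493-1106241, plus strand, 2 exons) lie on chromosome 1, as does GH3.17 (chr1:9825169-9828118, plus strand). GH3.1 (chr2:6451319-6453797, minus strand, 3 exons) and GH3.3 (chr2:9863855-9866562, minus strand, 3 exons) lie on chromosome 2. Chromosome 4 holds YUC2 (chr4:7721487-7724070, minus strand), YUC8 (chr4:14192569-14194302, plus strand, 1 exon) and GH3.5 (chr4:13653579-13656285, plus strand, 3 exons). GH3.6 (chr5:22130964-22133688, minus strand, 3 exons) lies on chromosome 5.

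Upstream sequence is shown for the genes on which the results turn. YUC8 and YUC9 encode the same enzyme step, and YUC8 passed in hy5 and cry1 cry2 while YUC9 did not, a difference between the genes that was not itself tested. GH3.3 changed most in cry1 cry2, and GH3.5 and GH3.6 have the most similar coding sequences of any pair among the 9 genes while moving opposite ways in cry1 cry2. Each line gives the 250 bases before the annotated gene start, 5′ to 3′ on the gene's strand, from the RefSeq TAIR10.1 genome. Capitals mark matches to any of 4 motifs searched on both strands from position -250 to 50 (position 1 is the first base of the gene). The motifs were CACGTG (the G-box, a core site for HY5 and for PIF factors), CACATG (a variant E-box that PIF factors also bind), and TGTCTC and TGTCGG (both auxin response elements), and none of these overlap each other in the lines shown. The windows lie at chr4:14192319-14192568 (plus strand) for YUC8, chr1:1104243-1104492 (plus strand) for YUC9, chr2:9866563-9866812 (minus strand) for GH3.3, chr4:13653329-13653578 (plus strand) for GH3.5 and chr5:22133689-22133938 (minus strand) for GH3.6.
YUC8: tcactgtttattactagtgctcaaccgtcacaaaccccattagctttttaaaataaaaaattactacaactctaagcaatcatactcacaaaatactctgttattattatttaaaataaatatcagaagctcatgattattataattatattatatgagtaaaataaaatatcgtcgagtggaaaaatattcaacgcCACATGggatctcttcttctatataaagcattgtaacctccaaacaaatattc
YUC9: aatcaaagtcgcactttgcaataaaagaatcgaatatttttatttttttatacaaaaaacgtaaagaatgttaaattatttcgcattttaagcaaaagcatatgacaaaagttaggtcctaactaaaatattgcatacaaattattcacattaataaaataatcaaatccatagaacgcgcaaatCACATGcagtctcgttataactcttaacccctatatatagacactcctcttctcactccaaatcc
GH3.3: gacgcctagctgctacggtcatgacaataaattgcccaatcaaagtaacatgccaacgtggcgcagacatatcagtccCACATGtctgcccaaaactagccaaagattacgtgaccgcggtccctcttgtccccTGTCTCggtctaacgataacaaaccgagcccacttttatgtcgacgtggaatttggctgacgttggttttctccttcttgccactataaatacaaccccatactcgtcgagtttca
GH3.5: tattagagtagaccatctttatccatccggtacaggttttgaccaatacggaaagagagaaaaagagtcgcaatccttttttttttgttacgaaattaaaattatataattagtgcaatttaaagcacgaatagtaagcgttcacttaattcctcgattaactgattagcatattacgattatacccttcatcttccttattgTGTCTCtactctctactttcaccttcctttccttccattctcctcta
GH3.6: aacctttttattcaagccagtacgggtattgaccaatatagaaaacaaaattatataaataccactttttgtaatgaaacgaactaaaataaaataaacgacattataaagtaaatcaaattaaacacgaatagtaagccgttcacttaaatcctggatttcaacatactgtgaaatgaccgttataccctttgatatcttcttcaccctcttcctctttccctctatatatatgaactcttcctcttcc

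YUC8 and YUC9 each held CACATG, at position -53 in YUC8 and at position -65 in YUC9. GH3.3 held CACATG at position -172 and TGTCTC at position -116. GH3.5 held TGTCTC at position -47, and GH3.6 held none of the 4 motifs in the window searched. Over all 9 genes CACATG was found in 5 windows (YUC2, YUC8, YUC9, GH3.3 and GH3.17) and TGTCTC in 4 (YUC2, GH3.1, GH3.3 and GH3.5). Of 27443 windows of protein-coding genes, 12.9% held CACATG and 14.2% held TGTCTC. Neither CACGTG (7.68% of all windows) nor TGTCGG (5.12%) was in any of the 9. The upstream windows of GH3.5 and GH3.6 shared a run of 14 bases, cacgaatagtaagc, that began at position -125 in both and was found in 2 of the 27443 upstream windows, these being the GH3.5 and GH3.6 windows themselves. It was the longest run among the 36 pairs of windows, in which shared runs were 7 to 14 bases. A match is a description of letters and not of binding.

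Per unit of coding length, conjugation genes held both the highest and some of the lowest levels. The deposited RPKM of the most-read transcript model was 65.7 ± 0.459 for GH3.5 and 54.9 ± 1.97 for GH3.6 in WT (SD, n = 2), the 2 highest of the 9 genes. GH3.17 followed in WT at 29.2 RPKM, then YUC8 at 15.8 RPKM, TAA1 at 13.8 RPKM and GH3.3 at 4.53 RPKM. YUC9 stood at 2.64 RPKM, GH3.1 at 1.68 RPKM and YUC2 at 1.44 RPKM in WT. YUC9 and GH3.1 lay closest for their spread there, at 1.96 to 3.32 RPKM for YUC9 and 1.54 to 1.81 RPKM for GH3.1. The first 6 genes kept this order in each of the 4 genotypes, and the libraries of neighbours among them did not overlap. GH3.3 came closest to breaking it: its level was 10.5 RPKM in agb1, next to TAA1 at 11.7 RPKM, and 15.1 RPKM in cry1 cry2, next to TAA1 at 22.0 RPKM. The order of the last 3 genes differed between genotypes, and in hy5 their libraries overlapped. YUC9 led them in agb1 at 4.00 RPKM, while GH3.1 led them in cry1 cry2 at 2.74 RPKM, within the YUC9 range of 1.79 to 3.36 RPKM. RPKM values were not scaled by TMM, so they are used here to order genes within a genotype and not to compare genotypes.

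GH3.17 was counted as 2 models and YUC2 as 3, and the other 7 genes as 1 each. The second model of GH3.17 took 36.2% to 42.7% of the reads of the locus over the 8 libraries. Summed over models, GH3.17 stood at 65.6 RPKM in hy5, against 63.3 RPKM for GH3.6, and at 74.5 RPKM in cry1 cry2, against 52.3 RPKM for GH3.6, so its place in the order rests on how models are counted. The most-read model of YUC2 took 37.8% to 47.8% of the reads of its locus. Summed over models, YUC2 stood at 4.08 RPKM in WT (libraries 3.63 to 4.53 RPKM), overlapping GH3.3 (4.22 to 4.83 RPKM). By these sums YUC2 lay above YUC9 and GH3.1 in the mean of each genotype. Its place as the lowest gene in WT thus also rests on how models are counted. Reads that match more than 1 gene are a further limit, because the sources used here do not give the read length or the handling of such reads. The longest stretch of coding sequence identical between GH3.3 and GH3.2 was 56 bases, and it was 42 bases between GH3.5 and GH3.6 and also 42 bases between YUC9 and YUC5. Levels of these genes are uncertain to the extent that reads were shared.

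TAA1 stood lowest in agb1 and highest in cry1 cry2. It had 14.6 and 14.9 CPM in agb1, 19.8 and 21.0 CPM in hy5 and 24.6 and 21.9 CPM in cry1 cry2, against 17.2 and 15.9 CPM in WT. All 4 hy5 and cry1 cry2 libraries lay above both WT libraries, and both agb1 libraries lay below them. TAA1 rose in cry1 cry2 by a log2 fold change of 0.48 ± 0.09 (SE, adjusted p = 3.79e-05) and in hy5 by 0.30 ± 0.09 (adjusted p = 0.00881). That hy5 result missed the threshold without hy5 replicate 2 (adjusted p = 0.0924), with WT replicate 2 left out (adjusted p = 0.0916) and with DESeq2 (adjusted p = 0.0795). The agb1 difference from WT was not called, at a log2 fold change of -0.18 ± 0.10 (adjusted p = 0.257). Between mutants, TAA1 was lower in agb1 than in hy5 (-0.47 ± 0.10, adjusted p = 1.61e-04) and than in cry1 cry2 (-0.66 ± 0.10, adjusted p = 7.34e-07), on the log2 scale. TAA1 followed the same order over the genotypes as the summed root markers, agb1 lowest, WT next, then hy5 and cry1 cry2, an order that in hy5 rests on a few abundant markers and is not that of the marker median. The TAA1 order was also the reverse of that of the green shoot markers, by their sum and by their median. The part of root or green shoot cells in the TAA1 differences was not tested.

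YUC8, a YUCCA gene known as a target of PIF factors in shade and warmth, was higher in hy5 and cry1 cry2 and close to WT in agb1. Its levels were 22.3 and 21.3 CPM in agb1, 30.7 and 27.5 CPM in hy5 and 32.7 and 31.6 CPM in cry1 cry2, against 20.3 and 21.0 CPM in WT. The 4 hy5 and cry1 cry2 libraries lay above all 4 others. YUC8 rose in cry1 cry2 by a log2 fold change of 0.64 ± 0.08 (adjusted p = 7.09e-08), which is 1.56-fold, and in hy5 by 0.49 ± 0.08 (adjusted p = 1.10e-05), which is 1.41-fold. Both calls were kept under every alternative run. In agb1 the log2 fold change was 0.08 ± 0.09 (adjusted p = 0.587). The level in agb1 was also lower than in hy5 (-0.41 ± 0.08, adjusted p = 1.55e-04) and than in cry1 cry2 (-0.56 ± 0.08, adjusted p = 1.17e-06), on the log2 scale. The difference between hy5 and cry1 cry2 was not called (-0.15 ± 0.08, adjusted p = 0.133).

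YUC9, which encodes the same enzyme step and is the gene nearest to YUC8 in coding sequence among the 9, did not follow it. YUC9 had 5.19 and 5.63 CPM in agb1, 2.17 and 2.73 CPM in hy5 and 2.05 and 3.797 CPM in cry1 cry2, against 4.33 and 2.50 CPM in WT. Those levels rest on 37 to 97 reads per library, and the replicates of WT (97 and 49 reads) and of cry1 cry2 (37 and 67 reads) stood apart. Both agb1 libraries lay above all 6 others. No difference of YUC9 from WT was called: the log2 fold change was 0.64 ± 0.23 in agb1 (adjusted p = 0.0536), -0.49 ± 0.26 in hy5 (adjusted p = 0.134), and for cry1 cry2 -0.25 ± 0.25 (adjusted p = 0.431). YUC9 was higher in agb1 than in hy5 (log2 fold change 1.13 ± 0.25, adjusted p = 4.24e-04) and than in cry1 cry2 (0.89 ± 0.24, adjusted p = 0.00265). The comparison of agb1 with cry1 cry2 was not called without cry1 cry2 replicate 1 (0.51, adjusted p = 0.0897). Against WT, YUC9 passed in agb1 without WT replicate 1 (log2 fold change 1.10, adjusted p = 0.0107) and without either cry1 cry2 library (adjusted p = 0.0214 and 0.0224). YUC9 also passed there when loci of low count were kept (adjusted p = 0.00709), with agb1 and WT fitted alone (adjusted p = 0.0233), with organelle genes left out (adjusted p = 0.0295) and with RLE scaling (adjusted p = 0.0493). In hy5 YUC9 passed as lower without WT replicate 2 (log2 fold change -0.81, adjusted p = 0.0232), and in cry1 cry2 as lower without cry1 cry2 replicate 2 (-0.75, adjusted p = 0.041).

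YUC2, a YUCCA gene of shoot development, was low and was not called against WT. It had 5.53 and 4.67 CPM in agb1, 5.39 and 5.87 CPM in hy5 and 3.54 and 4.31 CPM in cry1 cry2, against 4.83 and 3.88 CPM in WT. Those levels rest on 64 to 116 reads per library summed over 3 models, of which the most-read held 25 to 46. The hy5 libraries lay above both WT libraries, while agb1 and cry1 cry2 overlapped WT. The log2 fold change was 0.23 ± 0.18 in agb1 (adjusted p = 0.455), 0.37 ± 0.17 in hy5 (adjusted p = 0.0852), and for cry1 cry2 -0.16 ± 0.18 (adjusted p = 0.496). YUC2 was higher in hy5 than in cry1 cry2 by a log2 fold change of 0.53 ± 0.18 (adjusted p = 0.0185). That call was lost without hy5 replicate 2 (adjusted p = 0.119), without cry1 cry2 replicate 1 (adjusted p = 0.162), with library sizes alone in place of TMM (adjusted p = 0.103) and with DESeq2 (adjusted p = 0.123).

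**Figure D1:**
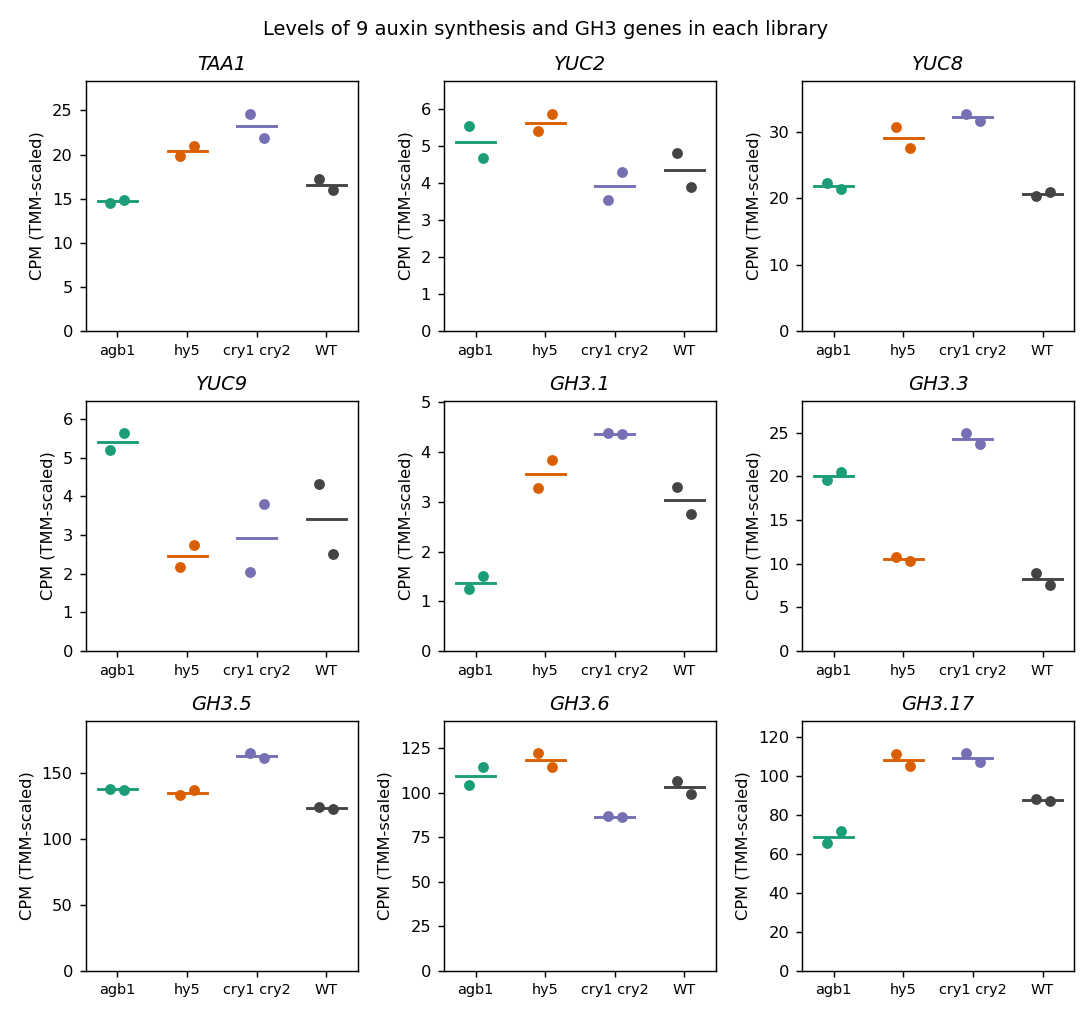
TMM-scaled CPM of each of the 9 genes in the 8 libraries, 1 panel per gene with its own axis from 0, mutants left of WT, points for libraries and bars for means. GH3.3 stood at 19.6 to 24.9 CPM in the agb1 and cry1 cry2 libraries and at 7.61 to 10.7 CPM in the hy5 and WT libraries, and GH3.17 stood above WT in all 4 hy5 and cry1 cry2 libraries and below it in both agb1 libraries.

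GH3.3, an IAA-amido synthetase gene that auxin induces quickly, rose in all 3 mutants and changed most of the 9 genes in cry1 cry2. GH3.3 had 19.6 and 20.5 CPM in agb1, 10.7 and 10.3 CPM in hy5 and 24.9 and 23.7 CPM in cry1 cry2, against 8.89 and 7.61 CPM in WT. Both agb1 and both cry1 cry2 libraries lay above the hy5 libraries, which in turn lay above WT. GH3.3 rose 2.93-fold in cry1 cry2 (log2 fold change 1.55 ± 0.10, adjusted p = 6.18e-14) and 2.42-fold in agb1 (1.27 ± 0.11, adjusted p = 1.80e-10). In agb1 its log2 fold change and that of GH3.1 were of similar size and opposite sign, at 1.17 to 1.40 for GH3.3 and -1.29 to -1.01 for GH3.1 with each library left out. GH3.1 had the larger of the 2 without WT replicate 2, without agb1 replicate 2 and with library sizes alone. The GH3.3 increase in hy5 was 1.27-fold (0.34 ± 0.12, adjusted p = 0.0178), and this call was lost without hy5 replicate 1 (adjusted p = 0.0814), with WT replicate 2 left out (adjusted p = 0.18) and with DESeq2 (adjusted p = 0.0908). GH3.3 was higher in agb1 than in hy5 (0.93 ± 0.10, adjusted p = 9.65e-09) and lower in hy5 than in cry1 cry2 (-1.21 ± 0.10, adjusted p = 1.68e-11), on the log2 scale. It was lower in agb1 than in cry1 cry2 (-0.28 ± 0.09, adjusted p = 0.0104), a call lost without agb1 replicate 1 (adjusted p = 0.0899), without cry1 cry2 replicate 1 (adjusted p = 0.0921) and with DESeq2 (adjusted p = 0.118). The order of levels for GH3.3, with agb1 and cry1 cry2 high, was not that of the root marker sum.

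GH3.1, the lowest of the 5 GH3 genes, fell in agb1. It had 1.24 and 1.51 CPM in agb1, 3.28 and 3.85 CPM in hy5 and 4.37 and 4.36 CPM in cry1 cry2, against 3.31 and 2.76 CPM in WT, from 22 to 79 reads per library. Both agb1 libraries lay below all others, the cry1 cry2 libraries lay above all others, and hy5 overlapped WT. The log2 fold change against WT was -1.16 ± 0.25 in agb1 (adjusted p = 0.00131), which is 0.449 times the WT level. In cry1 cry2 it rose by 0.52 ± 0.19 on the log2 scale (adjusted p = 0.0263), a call lost without either cry1 cry2 library (adjusted p = 0.0928 and 0.082), with WT replicate 2 left out (adjusted p = 0.167) and with DESeq2 (adjusted p = 0.181). In hy5 its log2 fold change was 0.23 ± 0.20 (adjusted p = 0.368). GH3.1 was lower in agb1 than in hy5 (-1.39 ± 0.25, adjusted p = 3.19e-05) and than in cry1 cry2 (-1.67 ± 0.24, adjusted p = 7.48e-07), on the log2 scale.

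GH3.17, whose enzyme joins IAA to glutamate, was lower in agb1 and higher in hy5 and cry1 cry2. It had 65.6 and 71.7 CPM in agb1, 112 and 105 CPM in hy5 and 112 and 107 CPM in cry1 cry2, against 88.2 and 87.1 CPM in WT. The 3 levels did not overlap, with agb1 at the bottom, WT between, and the libraries of hy5 and cry1 cry2 mixed at the top. The log2 fold change against WT was -0.35 ± 0.06 in agb1 (adjusted p = 7.26e-05), 0.31 ± 0.06 in hy5 (adjusted p = 9.14e-05), and for cry1 cry2 0.32 ± 0.06 (adjusted p = 2.94e-05). All 3 calls were kept under every alternative run. Between hy5 and cry1 cry2 the log2 fold change was -0.02 ± 0.06 (adjusted p = 0.848), while agb1 was lower than hy5 (-0.66 ± 0.06, adjusted p = 2.33e-10) and than cry1 cry2 (-0.68 ± 0.06, adjusted p = 7.08e-11). By their means GH3.17 and GH3.1, like TAA1, had agb1 lowest, WT next and hy5 and cry1 cry2 above, the order of the summed root markers but not, in hy5, of their median, and GH3.1 in hy5 was not called apart from WT. By their means the order was also the reverse of that of the green shoot markers, by sum and by median. The part of root or green shoot cells in the GH3.17 and GH3.1 differences was not tested.

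GH3.5 and GH3.6, the 2 highest of the 9 genes by RPKM of the most-read model, parted in cry1 cry2. GH3.5, whose enzyme acts on IAA and also on salicylic acid, had 138 and 137 CPM in agb1, 133 and 137 CPM in hy5 and 165 and 161 CPM in cry1 cry2, against 124 and 122 CPM in WT. Every mutant library lay above both WT libraries, and the cry1 cry2 libraries lay above all others. GH3.5 rose in cry1 cry2 by a log2 fold change of 0.40 ± 0.05 (adjusted p = 1.74e-07). It passed with smaller changes in agb1 (0.16 ± 0.05, adjusted p = 0.0415) and in hy5 (0.13 ± 0.05, adjusted p = 0.0467). The agb1 call was lost without either WT library (adjusted p = 0.131 and 0.179) and without either agb1 library (adjusted p = 0.18 and 0.145). Further losses came with the most-read model (adjusted p = 0.0578), with DESeq2 (adjusted p = 0.0577), with loci of low count kept (adjusted p = 0.0553) and with library sizes alone (adjusted p = 0.251). The hy5 call was lost without any 1 of the 8 libraries, at an adjusted p of 0.0539 to 0.194, and under most other alternatives, with DESeq2 at 0.0858. GH3.5 was lower in agb1 (-0.25 ± 0.05, adjusted p = 2.33e-04) and in hy5 (-0.27 ± 0.05, adjusted p = 1.03e-04) than in cry1 cry2, on the log2 scale, and agb1 and hy5 were not called apart (0.03 ± 0.05, adjusted p = 0.726).

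GH3.6, whose overexpression is known to shorten hypocotyls in the light, had 104 and 115 CPM in agb1, 122 and 114 CPM in hy5 and 86.8 and 86.1 CPM in cry1 cry2, against 107 and 99.3 CPM in WT. The cry1 cry2 libraries lay below all others, the hy5 libraries lay above WT, and agb1 overlapped WT. GH3.6 fell in cry1 cry2 by 0.25 on the log2 scale (SE 0.06, adjusted p = 8.51e-04), but with library sizes alone it was not called (-0.07, adjusted p = 0.301). It rose in hy5 by a log2 fold change of 0.20 ± 0.06 (adjusted p = 0.0083), a call lost without hy5 replicate 1 (adjusted p = 0.0925) and with WT replicate 2 left out (adjusted p = 0.132). The agb1 difference was not called (0.08 ± 0.06, adjusted p = 0.418). GH3.6 was higher in hy5 than in cry1 cry2 (0.45 ± 0.06, adjusted p = 3.82e-07) and in agb1 than in cry1 cry2 (0.34 ± 0.06, adjusted p = 2.77e-05), the agb1 difference being 0.09 with library sizes alone (adjusted p = 0.189). Of the 5 GH3 genes it was the one called lower in cry1 cry2 than in WT, and the one called higher in agb1 and in hy5 than in cry1 cry2.

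**Figure D2:**
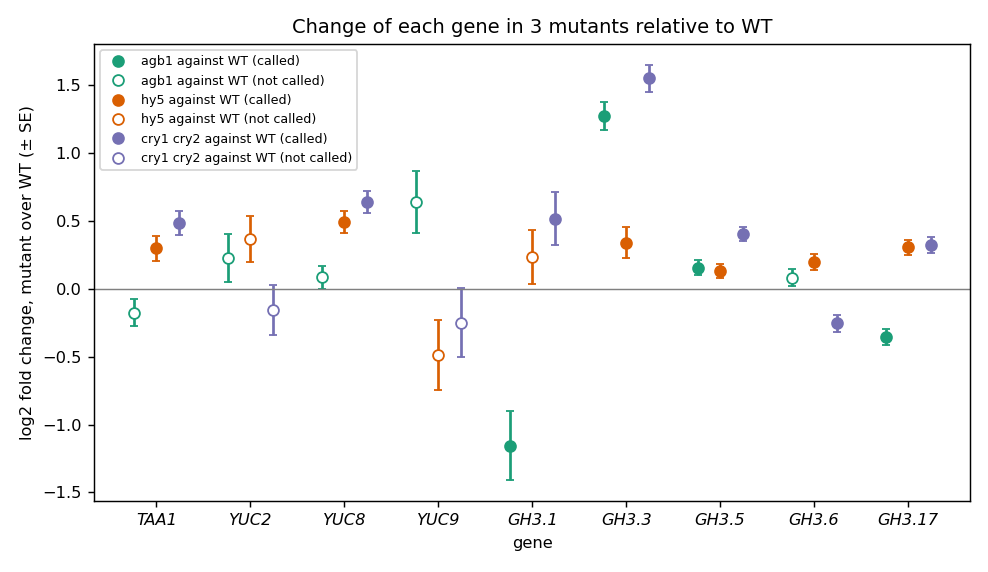
Log2 fold change of each of the 9 genes in agb1, hy5 and cry1 cry2 against WT, with bars of 1 SE and filled points where the adjusted p was under 0.05. GH3.3 lay furthest above 0 in agb1 (1.27) and cry1 cry2 (1.55), and GH3.1 furthest below 0 in agb1 (-1.16).

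Counted together, 2 of the 9 genes rose in agb1 (GH3.3 and GH3.5), 2 fell (GH3.1 and GH3.17) and 5 were not called. Of all 20695 loci tested, 17.2% were called in agb1, 8.76% higher and 8.41% lower, so 51.0% of the calls were higher, against 31.4% with library sizes alone. All 4 calls in agb1 were of GH3 genes. No synthesis gene was called in the main edgeR fit or by DESeq2, and YUC9 alone of the 4 was under 0.05 before adjustment by edgeR. This split rests on 2 results near the threshold, GH3.5 (adjusted p = 0.0415) and YUC9 (adjusted p = 0.0536). GH3.5 stayed on its side of the threshold in 9 of 17 alternatives, and YUC9 in 9 of 16. The agb1 libraries of 7 of the 9 genes did not overlap the WT libraries, against 54.8% of all loci tested. The median log2 fold change of the 9 genes was 0.08 in agb1, beside -0.00266 over all loci, and their median absolute log2 fold change was 0.23 beside 0.14.

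In hy5, 6 of the 9 genes rose (TAA1, YUC8, GH3.3, GH3.5, GH3.6 and GH3.17), none fell and 3 were not called. By edgeR at an unadjusted p under 0.05, and by DESeq2, the count of lower genes in hy5 was also 0. The share called over all loci was 42.9%, with 22.6% higher and 20.2% lower. Only YUC8 and GH3.17 were kept without each library in turn, and without WT replicate 2 the counts were 2 higher and 1 lower (YUC9). DESeq2 called 3 higher, and over all loci 3353 higher and 2689 lower, where edgeR called 4683 and 4189. The hy5 libraries of 7 genes did not overlap WT, against 70.1% of all loci. The median log2 fold change of the 9 genes was 0.30 in hy5, beside -0.00106 over all loci.

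In cry1 cry2, 6 genes rose (TAA1, YUC8, GH3.1, GH3.3, GH3.5 and GH3.17), GH3.6 fell, and YUC2 and YUC9 were not called. Over all loci 51.4% were called in cry1 cry2, 25.6% higher and 25.8% lower. Of those calls 49.8% were higher, against 70.7% with library sizes alone, which moved the median of all loci by 0.18 on the log2 scale. The libraries of 7 genes did not overlap WT, against 74.8% of all loci. The median log2 fold change of the 9 genes was 0.40 in cry1 cry2, beside 0.00103 over all loci, and the median absolute change was 0.40 beside 0.30. The 3 comparisons share the WT libraries, so their values are set side by side here and not correlated. The summed level of the 9 genes was 376 to 392 CPM in agb1, 428 to 439 CPM in hy5, 444 to 456 CPM in cry1 cry2 and 363 to 378 CPM in WT, and it overlapped WT in agb1 alone. That sum was carried by GH3.5, GH3.6 and GH3.17, with means of 123, 103 and 87.6 CPM in WT. It says little of the synthesis genes.

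Between mutants, agb1 differed from cry1 cry2 in 8 of the 9 genes, with YUC9 and GH3.6 higher in agb1 and 6 genes lower, and only YUC2 was not called (log2 fold change 0.39 ± 0.19, adjusted p = 0.0786). Of all loci tested 57.9% were called in that comparison, 28.8% higher and 29.1% lower. Of those calls 49.7% were higher in agb1, against 27.5% with library sizes alone (a median shift of -0.25). All 9 genes had libraries that did not overlap between agb1 and cry1 cry2, against 77.5% of all loci. Between agb1 and hy5, 2 genes were higher in agb1 (YUC9 and GH3.3), 4 were lower (TAA1, YUC8, GH3.1 and GH3.17) and 3 were not called. Of all loci 49.9% were called, 24.2% higher and 25.7% lower, and 7 of the 9 genes had libraries that did not overlap, against 73.7% of all loci. There 48.5% of the calls over all loci were higher in agb1, against 38.4% with library sizes alone. Between hy5 and cry1 cry2, 2 genes were higher in hy5 (YUC2 and GH3.6), 2 were lower (GH3.3 and GH3.5) and 5 were not called. Of all loci 43.7% were called, 23.2% higher and 20.6% lower, and 7 of the 9 genes did not overlap, against 69.7%. The last comparison depended on scaling. With library sizes alone the share of calls over all loci that were higher in hy5 was 28.2% in place of 53.0% (a median shift of -0.18), and 6 of the 9 genes were called lower and 1 higher.

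Across the 8 libraries, the correlations of log2 CPM between pairs of the 9 genes were spread over both signs. They describe these libraries alone, since the 8 points share 4 genotypes and a common scaling. GH3.1 and GH3.17 were the closest (Pearson r = 0.945, n = 8 libraries), followed by TAA1 with GH3.17 (0.923) and TAA1 with YUC8 (0.891). YUC9 ran opposite to GH3.17 (-0.806), and GH3.5 opposite to GH3.6 (-0.674). Over all loci tested, the genes most like GH3.3 were GATL10 (r = 0.991) and UGT74B1 (0.966), and 11 loci in all had r over 0.95. YUC9 had 5 such loci and YUC2 had 6, while TAA1 had 603, with ABCI17 (0.996) and RALF1 (0.995) closest. YUC8 was closest to AT5G56040 (0.997) and AT5G19090 (0.992), and GH3.17 to AT1G59970 (0.997) and BOR1 (0.994). GH3.5 was closest to DYL1 (0.996) and UMAMIT17 (0.990), GH3.6 to AT1G53210 (0.989) and AT1G15060 (0.983), and GH3.1 to AHL19 (0.993) and AT2G18980 (0.989). YUC2 was closest to AT5G57815 (0.962) and SC35 (0.957), and YUC9 to AT1G51720 (0.971) and BGLU47 (0.963).

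Other genes of the pathway and its regulators were read from lists named by function. The list counts stand beside the shares of all loci called against WT. Those shares were 8.76% higher and 8.41% lower in agb1, 22.6% and 20.2% in hy5, and 25.6% and 25.8% in cry1 cry2. A list of 11 further genes of the indole-3-pyruvate route held the remaining TAA1 relatives, YUCCA genes and AT1G80360, and 6 of the 11 were tested. AT1G80360, annotated as a PLP-dependent transferase, has the synonym VAS1, for reversal of the phenotype of sav3, a name of TAA1. It need not act toward IAA, so the counts of this list are no measure of synthesis. In agb1, YUC5 rose and YUC6 fell. YUC5, the gene closest to YUC9 in coding sequence, averaged 2.41 ± 0.105 CPM in agb1 and 0.856 ± 0.0537 CPM in WT (a log2 fold change of 1.48 at adjusted p = 0.00109). YUC6 averaged 3.177 ± 0.264 CPM in agb1 and 6.18 ± 0.148 CPM in WT (-0.96, adjusted p = 1.53e-04). In hy5 none of the 6 was called by edgeR or by DESeq2, and 2 were higher at an unadjusted edgeR p under 0.05, the closest being AT1G80360 (adjusted p = 0.0510) and YUC6 (adjusted p = 0.069). In cry1 cry2, 4 rose and 1 fell. YUC3 averaged 9.10 ± 0.681 CPM in cry1 cry2 and 5.51 ± 0.152 CPM in WT (0.72, adjusted p = 1.07e-04), and the aminotransferase gene TAR2 averaged 3.61 ± 0.179 CPM in cry1 cry2 and 6.17 ± 0.19 CPM in WT (-0.77, adjusted p = 2.52e-04).

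Of the 14 other GH3 genes, 10 were tested, and they did not move as 1 group. GH3.11, also named JASMONATE RESISTANT 1, was among the 14, so the counts of this list are no measure of auxin conjugation. In agb1 only GH3.12 rose, a gene known for salicylic acid build-up (log2 fold change 1.40, adjusted p = 0.0316, from 1.13 ± 0.238 CPM in agb1 and 0.421 ± 0.162 CPM in WT). In hy5, 3 rose and 2 fell. AT5G13370, annotated as a GH3 family protein, averaged 41.0 ± 3.28 CPM in hy5 and 24.6 ± 0.364 CPM in WT (0.73, adjusted p = 2.92e-09). GH3.2, the gene closest to GH3.3 in coding sequence, averaged 10.7 ± 0.849 CPM in hy5 and 16.0 ± 1.68 CPM in WT (-0.58, adjusted p = 1.20e-04). In cry1 cry2, 2 rose and 3 fell. GH3.10, known for a role in hypocotyl growth under light, averaged 11.1 ± 1.12 CPM in cry1 cry2 and 35.3 ± 1.07 CPM in WT (-1.67, adjusted p = 5.66e-16), and AT1G48670, a further GH3 family gene, had a log2 fold change of 1.20 (adjusted p = 4.14e-04).

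Of 7 conjugate hydrolase genes, ILR1 and its relatives, 6 were tested. In cry1 cry2 5 of them rose, beside 25.6% of all loci, and none fell (0 lower also by DESeq2 and at an unadjusted edgeR p under 0.05). Which conjugates each enzyme cleaves was not examined, and release of IAA was not measured. IAR3 averaged 62.9 ± 0.327 CPM in cry1 cry2 and 43.6 ± 0.293 CPM in WT (a log2 fold change of 0.53 at adjusted p = 4.25e-08), and ILL2 averaged 23.8 ± 1.19 CPM in cry1 cry2 and 17.7 ± 0.973 CPM in WT (0.43, adjusted p = 1.47e-04). In hy5, 2 rose and 1 fell, with ILL6 at 0.54 (adjusted p = 1.80e-07) and IAR3 at 0.26 (adjusted p = 0.00171) on the log2 scale. In agb1 only ILL3 was called, lower at -0.46 (adjusted p = 0.0245). The median log2 fold change of the 6 was -0.14 in agb1, 0.14 in hy5, and for cry1 cry2 0.32.

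Genes of other routes of auxin modification, the methyl esterase gene MES17 among them, numbered 6 tested of 7. In agb1, 2 fell, in hy5 3 rose and 1 fell, and in cry1 cry2 3 rose and 2 fell. AT1G14120, annotated as an Fe(II)-dependent oxygenase, averaged 7.24 ± 0.531 CPM in agb1, 29.8 ± 0.34 CPM in hy5, 21.2 ± 1.22 CPM in cry1 cry2 and 14.9 ± 0.442 CPM in WT. Its log2 fold change was -1.03 in agb1 (adjusted p = 3.95e-08), 1.00 in hy5 (adjusted p = 8.06e-11), and for cry1 cry2 0.51 (adjusted p = 1.93e-05). UGT74E2, which encodes a glucosyltransferase of indole-3-butyric acid, fell in agb1 (-0.77, adjusted p = 5.02e-04) and hy5 (-1.50, adjusted p = 1.40e-08), on the log2 scale. UGT74D1, another auxin glucosyltransferase gene, fell in cry1 cry2 (-0.48, adjusted p = 1.83e-07).

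Upstream of TAA1, all 8 tryptophan synthesis genes were tested. In agb1 only TSB1, a tryptophan synthase beta subunit gene, was called (log2 fold change 0.16, adjusted p = 0.0481). None rose and 3 fell in hy5, and 1 rose and 3 fell in cry1 cry2. ASA2, an anthranilate synthase gene, averaged 19.1 ± 0.402 CPM in hy5, 15.9 ± 0.727 CPM in cry1 cry2 and 31.8 ± 0.355 CPM in WT (a log2 fold change of -0.73 at adjusted p = 7.06e-09 in hy5, and -0.996, adjusted p = 1.04e-11 in cry1 cry2). TSB1 fell as well, at -0.19 in hy5 (adjusted p = 0.00635) and -0.43 in cry1 cry2 (adjusted p = 1.86e-07) on the log2 scale. In the route through indole-3-acetaldoxime and nitriles, with 7 of 7 tested, 3 rose and 2 fell in agb1, 2 rose and 3 fell in hy5, and 2 rose and 2 fell in cry1 cry2. CYP79B2, whose enzyme makes the aldoxime from tryptophan, rose in agb1 (0.56, adjusted p = 6.92e-08), and the nitrilase gene NIT2 fell there (-0.67, adjusted p = 7.50e-08). The nitrilase gene NIT1 rose in hy5 (0.57, adjusted p = 4.45e-10) and CYP71A13 fell (-2.35, adjusted p = 9.31e-08). CYP71A13 averaged 0.778 ± 0.189 CPM in hy5 (11 and 18 reads) and 4.03 ± 0.562 CPM in WT. Its mean was also below WT in agb1 (1.58 ± 0.394 CPM) and in cry1 cry2 (0.0843 ± 0.041 CPM, from 1 and 2 reads). In cry1 cry2 the amidase gene AMI1 fell (-0.99, adjusted p = 8.96e-14) and CYP79B3 rose (0.77, adjusted p = 8.49e-12).

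Among regulators, none of the 6 auxin receptor genes was called in agb1 (0 also by DESeq2 and at an unadjusted edgeR p under 0.05), while 2 rose and 1 fell in hy5 and 2 rose and 2 fell in cry1 cry2. AFB3 rose in hy5 (log2 fold change 0.29, adjusted p = 1.89e-04) and in cry1 cry2 (0.43, adjusted p = 3.96e-07), AFB1 fell in hy5 (-0.34, adjusted p = 4.54e-05) and AFB2 rose in cry1 cry2 (0.58, adjusted p = 9.78e-10). Of 5 genes for PIF factors, the transcription factors known to activate YUC8, 3 fell in agb1, 1 rose and 2 fell in hy5, and 2 rose and 3 fell in cry1 cry2. PIF4 averaged 69.0 ± 1.44 CPM in hy5, 79.1 ± 3.72 CPM in cry1 cry2 and 116 ± 0.649 CPM in WT (a log2 fold change of -0.75 at adjusted p = 6.41e-12 in hy5, and -0.56, adjusted p = 1.28e-09 in cry1 cry2). PIF5 was also lower, at -0.21 in agb1 (adjusted p = 0.0103), -0.59 in hy5 (adjusted p = 2.15e-09), and for cry1 cry2 -0.58 (adjusted p = 1.71e-09), and PIF1 fell in agb1 (-0.32, adjusted p = 0.0039). PIF1 averaged 40.9 ± 1.84 CPM in hy5 and 33.7 ± 0.756 CPM in cry1 cry2, above its 28.5 ± 1.27 CPM in WT. PIF3 averaged 63.8 ± 3.83 CPM in cry1 cry2 and 41.7 ± 1.05 CPM in WT. The YUC8 level was higher than WT in hy5 and cry1 cry2, as given above. PIF protein was not measured, and the part of PIF factors in the YUC8 level was not tested. Of 4 auxin response factor genes, ARF6 fell (-0.39, adjusted p = 4.08e-06) and ARF8 rose (0.30, adjusted p = 0.00195) in hy5, and none was called in agb1 or cry1 cry2 by edgeR or DESeq2, with 1 lower in cry1 cry2 at an unadjusted edgeR p under 0.05.

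**Figure D3:**
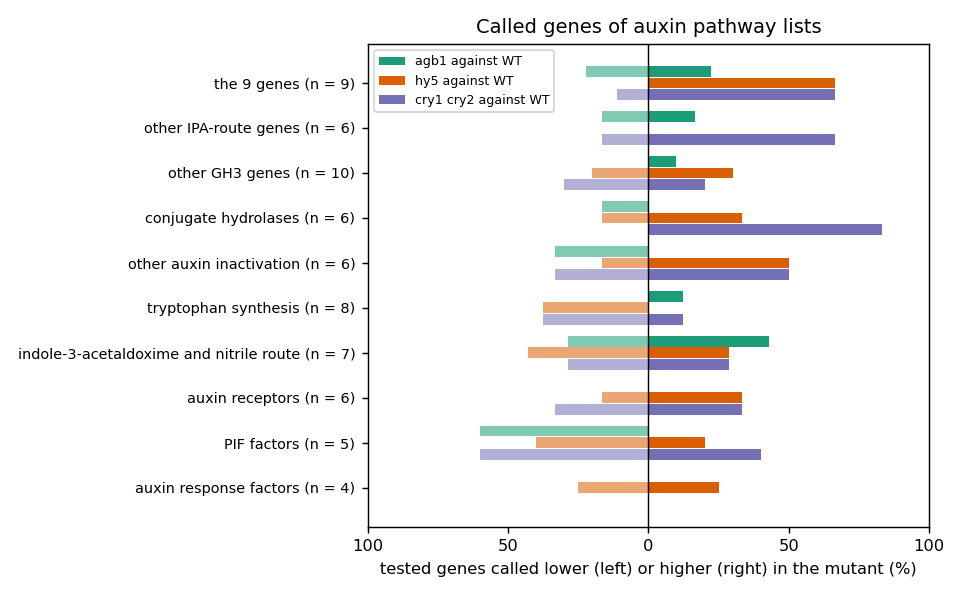
Share of tested genes called higher and lower against WT in agb1, hy5 and cry1 cry2 (%). It is given for the 9 genes and for 9 lists of other genes, PIF factors among them, with the number tested beside each name. In cry1 cry2 the conjugate hydrolases had 5 of 6 called higher, and the 9 genes had 6 higher and 1 lower beside 25.6% and 25.8% of all loci.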

How the data were processed

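RNA was sequenced from whole seedlings of 4 genotypes, 2 libraries each, which the labels call biological replicates. Whether the replicates came from separate growth runs is not stated, so p-values measure the spread between these samples. In the edgeR fit the spread of each gene was drawn toward a trend over all loci tested. Its p-values and SE thus rest partly on the spread of other loci. The deposited tables give raw read counts and RPKM for each of 48321 transcript models, per the file headers. The RPKM of WT replicate 2 stood under a repeated header of the counts and was recognised by its values. Per the submitters' processing notes, Bowtie2 2.2.2 was used with the build TAIR10. Of the counting tool, strand, read length and handling of reads with several matches, the sources used here say nothing.

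Counts were summed over the models of each locus (27628 loci, 10690 with more than 1 model), which may count a read more than once. Totals ran from 15651218 to 23098347 reads, and 3 reads correspond to 0.130 to 0.192 CPM. Between replicates the chi-square of counts per degree of freedom was 2.34 to 3.44, so none was a copy of the other. Reads counted more than once can raise this value, so it cannot tell biological from technical replicates. Coordinates, symbols and sequence came from RefSeq TAIR10.1, in which 27420 loci matched by locus tag; its build may differ from that of the authors. The length implied by the deposited RPKM was the annotated coding length less 2 or 3 bases for all 9 genes.

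All 8 libraries entered 1 fit with edgeR 4.0.16 in R 4.3.3 (quasi-likelihood test, TMM factors 0.931 to 1.12, 4 residual degrees of freedom, common biological coefficient of variation 0.0426). The filterByExpr rule, with a minimum count of 10 and a minimum total of 15, kept 20695 of 24741 loci with a read. P-values were adjusted by Benjamini-Hochberg within each comparison over all loci tested, with a threshold of 0.05. SE is the absolute log2 fold change over the square root of F. Likeness was Pearson's r of log2 CPM (prior count 2) over the 8 libraries. The procedure was tested on simulated data.

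The 9 genes, the gene lists and the motifs were chosen with earlier results of these data known. Named genes were the 9, the 4 targeted genes, the 2 genes of lowest p per list and comparison with WT, and the 2 loci most like each of the 9. Values of a listed gene in a further genotype are shown where it was named in another, and PIF3 was named in addition. Alternatives were RLE scaling, library sizes alone, low counts kept, a floor of 5 CPM in 2 libraries, the 2 compared genotypes alone, a replicate block, the model with most reads, organelle genes left out, each library left out and DESeq2 1.42.0.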

Additional observations from a re-analysis of the deposited data

How the results depend on the processing

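Over 17 alternatives, 906 values of the 9 genes were recomputed in 6 comparisons. Of these, 838 kept direction and side of the threshold, 44 lost the call, 16 gained it and 8 changed sign, none of them called; YUC9 and GH3.1 gave no value at 5 CPM. For agb1 against WT, 1 gene in place of 2 was higher with library sizes alone, the model with most reads and DESeq2, and 1 in place of 2 was lower at 5 CPM, where GH3.1 was not tested. Over all loci DESeq2 called 2059 in place of 3553 there. For hy5 against WT, DESeq2 called 3 genes, all higher, in place of 6. Over all loci it called 3353 higher and 2689 lower there, in place of 4683 and 4189. For cry1 cry2 against WT, 0 in place of 1 was lower with library sizes alone. The number higher in agb1 was 1 in place of 2 at 5 CPM, where YUC9 was not tested, against both hy5 and cry1 cry2, and 1 with library sizes alone against cry1 cry2. Between hy5 and cry1 cry2, library sizes alone gave 1 higher, 6 lower and 7 called in place of 2, 2 and 4, and DESeq2 gave 1 higher. Library sizes alone also turned the log2 fold change of YUC2 in cry1 cry2 against WT to 0.023 and of GH3.5 between agb1 and hy5 to -0.046. With each library left out, agb1 against WT gave 2351 to 3684 calls over all loci and 1 to 3 of the 9 genes higher. Likewise hy5 against WT gave 3 to 5 genes called, 2 to 5 higher and 0 to 1 lower, and cry1 cry2 against WT gave 1 to 2 lower. The number higher was 1 to 2 for agb1 against cry1 cry2 and for hy5 against cry1 cry2. Log2 fold changes crossed 0 for YUC2 (-0.30 to 0.012) and YUC9 (-0.75 to 0.22) in cry1 cry2 against WT, and for GH3.17 (-0.059 to 0.027) and YUC9 (-0.61 to 0.27) in hy5 against cry1 cry2. Replicate numbers did not pair the libraries (correlations of deviations -0.0391 to 0.0597). A replicate block called 5 of the 9 genes in hy5 against WT in place of 6 (GH3.5, adjusted p = 0.0526) and changed no other call of the 9. The causes of these changes were not tested. With 2 libraries per genotype, YUC9 and GH3.1 rest on 22 to 97 reads each, and YUC2 on 64 to 116 reads summed over 3 models. Small changes in these genes were not detectable at this depth.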
